A study of Rattus norvegicus with 9 samples.

Results

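The genes described here are the replication-independent histone variants of the rat vestibular epithelium, whose products can enter chromatin outside of DNA replication. They were found by symbol in the table of gene counts, where 6 of the 7 named genes (H3f3a, H3f3b, H2afx, H2afy, H2afz and H2afv) were located among 32883 entries. All 6 passed the filter on low counts, as did 15517 genes in all. The remaining gene, H1f0, was not analysed here. The set was chosen by the level of H3f3b, in counts scaled to the size of each library (CPM), which was known to be higher in the exposed rats of this same series. Its own values are therefore given as a description with no test, and the question put to the data is whether the other variants moved with it.

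All animals were male Long-Evans rats. RNA was obtained from single animals, whose 2 utricles and 6 cristae were pooled and sequenced as 1 library per rat. Exposed rats drank water with the nitrile IDPN (3,3'-iminodipropionitrile), which damages vestibular hair cells (HCs), at 20 mM for 3 weeks (IDPN-3wk) or 7 weeks (IDPN-7wk), and control rats drank plain water. Each group had 3 libraries. The same control group, with rats euthanized at both time points, served both exposure times, so the comparisons with control are not independent of each other, and the labels do not say which control belonged to which time.

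In dividing cells most histones are made during S phase from clustered genes whose mRNAs end in a stem-loop and carry no poly(A) tail. Variant genes stand outside these clusters, their mRNAs are mostly polyadenylated, and cells that no longer divide, such as vestibular HCs, depend on them to replace histones lost from chromatin. H3.3 is the variant deposited at active genes, enhancers and telomeres, H2A.Z marks promoters, H2A.X is phosphorylated around DNA breaks, and macroH2A carries a large extra domain and is enriched in silent chromatin.

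H3f3a and H3f3b encode the same H3.3 protein from separate loci. The bases just upstream of both starts are shown because the counts of these genes did not move together here, and those of H2afx because it was the other variant whose change at 7 weeks was closest to that of H3f3b. The sequences are from RefSeq (build GRCr8), run 5′ to 3′ on the strand of the gene and end at the base before the start. Capitals mark CCAAT on either strand (read as ATTGG where it lies on the opposite strand). The window of H3f3b is chr10:101757637-101757886 (minus strand), that of H3f3a is chr13:95076696-95076945 (minus strand) and that of H2afx, listed by RefSeq as H2ax, is chr8:53568468-53568717 (plus strand).
H3f3b: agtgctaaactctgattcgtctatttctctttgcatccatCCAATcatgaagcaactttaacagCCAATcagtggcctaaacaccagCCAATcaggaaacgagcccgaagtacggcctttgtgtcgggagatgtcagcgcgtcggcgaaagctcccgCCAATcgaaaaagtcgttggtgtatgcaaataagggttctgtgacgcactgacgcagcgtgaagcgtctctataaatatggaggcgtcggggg
H3f3a: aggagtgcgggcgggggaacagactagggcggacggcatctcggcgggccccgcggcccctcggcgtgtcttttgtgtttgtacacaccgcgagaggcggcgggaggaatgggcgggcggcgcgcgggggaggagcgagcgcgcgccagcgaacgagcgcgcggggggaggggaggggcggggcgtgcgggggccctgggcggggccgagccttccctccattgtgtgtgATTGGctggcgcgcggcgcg
H2afx: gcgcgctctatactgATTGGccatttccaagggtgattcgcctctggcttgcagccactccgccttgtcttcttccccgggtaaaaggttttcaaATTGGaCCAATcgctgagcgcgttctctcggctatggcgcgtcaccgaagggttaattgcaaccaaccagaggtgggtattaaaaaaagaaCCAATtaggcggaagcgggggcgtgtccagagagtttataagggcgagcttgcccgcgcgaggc

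The H3f3b window held 4 CCAAT, which began 210, 186, 163 and 93 bases upstream of the start, all on the strand of the gene, and a TATAAA 23 bases upstream. The H3f3a window held 1 CCAAT, on the opposite strand 20 bases upstream, and no TATAAA. It also had a GC content of 76.4%, against 50.4% for H3f3b. The H2afx window held 4 CCAAT as well, 2 on each strand, with TATAAA on the opposite strand 30 bases upstream. The windows of H2afz and H2afv held 3 CCAAT each, and those of H2afy and H1f0 held none. Of 33465 RefSeq promoters of the same length, 34% held at least 1 CCAAT, 0.565% held 4 or more, and 12.9% held TATAAA. These matches describe the letters in the window and were not tested as binding sites.

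H3f3b (ENSRNOG00000006532), the H3.3 gene by which the set was chosen, had 923, 997 and 923 CPM in the control libraries. It had 1602, 1642 and 1639 CPM in the IDPN-3wk libraries and 1757, 1515 and 1648 CPM in the IDPN-7wk libraries. All 6 exposed rats were above all 3 controls, and the exposed groups overlapped each other. The mean went from 948 ± 42.7 CPM (SD, n = 3) in control to 1628 ± 22.2 CPM at 3 weeks and 1640 ± 122 CPM at 7 weeks. The fitted fold change was 1.72 at 3 weeks (95% interval 1.52 to 1.94) and 1.73 at 7 weeks (95% interval 1.54 to 1.95). Between 7 and 3 weeks the log2 difference was 0.01, with an interval from -0.16 to 0.18. These CPM rested on 31830 to 86273 counts per library. By size of fold change alone it was not among the largest changes. Of all genes tested, 17% moved further in either direction at 3 weeks and 18.9% at 7 weeks. These shares include genes with few counts, whose intervals are wide.

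**Figure D1:**
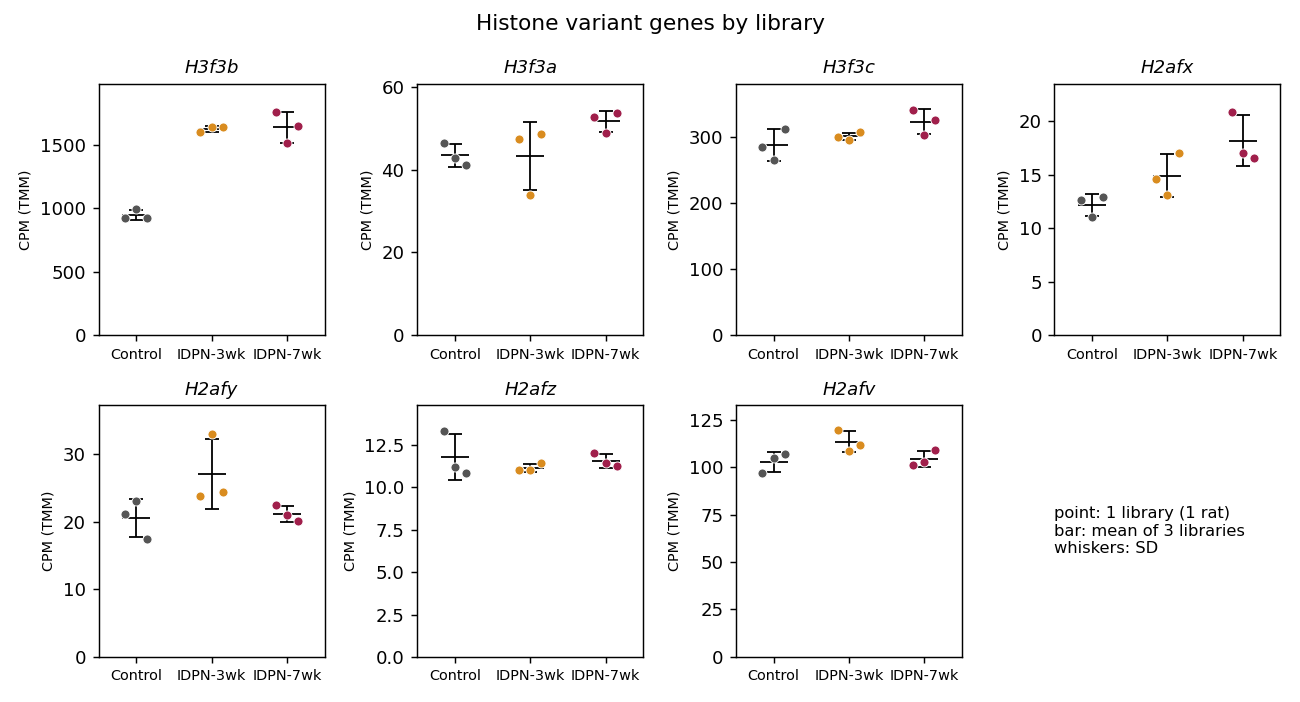
CPM of each histone variant gene (y axis, from 0, normalized by the trimmed mean of M values, TMM) in the control, IDPN-3wk and IDPN-7wk groups (x axis). Points are libraries of single rats, the bar is the mean of 3 and the whiskers are the SD. H3f3b lies between 923 and 997 CPM in control and between 1515 and 1757 in the exposed rats, with no value in between.

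H3f3a (ENSRNOG00000003220), which encodes the same protein, had 46.5, 42.9 and 41.1 CPM in control. The IDPN-3wk rats had 47.5, 33.9 and 48.7 CPM, and the IDPN-7wk rats had 52.7, 48.8 and 53.7 CPM. At 3 weeks the values spread to both sides of the controls, with replicate 2 below all of them, and at 7 weeks all 3 rats were above all controls. The log2 fold change at 3 weeks was -0.0041 (95% interval -0.34 to 0.33), with an adjusted p of 0.994 in edgeR's quasi-likelihood test with Benjamini-Hochberg adjustment, the test used throughout. Without replicate 2 of IDPN-3wk it was 0.14. At 7 weeks it was 0.25 (SE 0.151, 95% interval -0.09 to 0.59, adjusted p = 0.431 by edgeR), so this difference did not pass the test. Both upper bounds lay below the estimates for H3f3b, 0.78 and 0.79. Those are estimates of a gene chosen for its higher level, and they have intervals of their own. Setting bounds beside them, here and for the genes below, is a description with no test and no added support.

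A further entry for H3.3, H3f3c (ENSRNOG00000032401), was not in the chosen set. The count table called it protein coding and RefSeq lists it as a pseudogene. It had 285, 266 and 313 CPM in control, 300, 296 and 307 CPM in IDPN-3wk, and 342, 303 and 325 CPM in IDPN-7wk. The groups overlapped in both comparisons with control. Its log2 fold change was 0.06 at 3 weeks (95% interval -0.13 to 0.26, adjusted p = 0.784 by edgeR) and 0.17 at 7 weeks (95% interval -0.03 to 0.36, adjusted p = 0.336 by edgeR). RefSeq holds 21 rat entries with symbols that begin H3f3, 13 of them pseudogenes, so the division of reads among near-identical copies is uncertain.

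Ratios within a library do not depend on the scaling between libraries. The log2 ratio of H3f3b to H3f3a counts was 4.31, 4.54 and 4.49 in control, 5.08, 5.60 and 5.07 in IDPN-3wk, and 5.06, 4.96 and 4.94 in IDPN-7wk. Every exposed rat was therefore above every control. The ratio of H3f3b to H3f3c was 1.72 ± 0.175 in control, 2.44 ± 0.0309 in IDPN-3wk and 2.34 ± 0.0220 in IDPN-7wk (log2, SD, n = 3), again with no overlap between control and exposed rats. H3f3b supplied 72.3% to 76.4% of the counts given to the 3 H3.3 entries in control, 82.2% to 83.3% in IDPN-3wk and 81.1% to 81.7% in IDPN-7wk. Since H3f3b was chosen for its higher level in these exposed rats, both ratios are a description with no test. Their separation is no added support. A ratio shows unequal change and not which of its genes moved. The entries were not divided by length, so the ratios do not compare transcript numbers between genes.

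With the counts of H3f3a, H3f3b and H3f3c added up as a single gene, a choice made after the data were seen, the log2 fold change was 0.62 at 3 weeks (95% interval 0.46 to 0.79) and 0.66 at 7 weeks (95% interval 0.49 to 0.82). The sum of H3f3a and H3f3c without H3f3b differed from control by 0.05 and 0.18 (adjusted p = 0.811 and 0.285 by edgeR). H3f3b supplied most of the larger sum, whose difference is therefore a description with no test. The intervals of the smaller sum included 0 at both times.

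**Figure D2:**
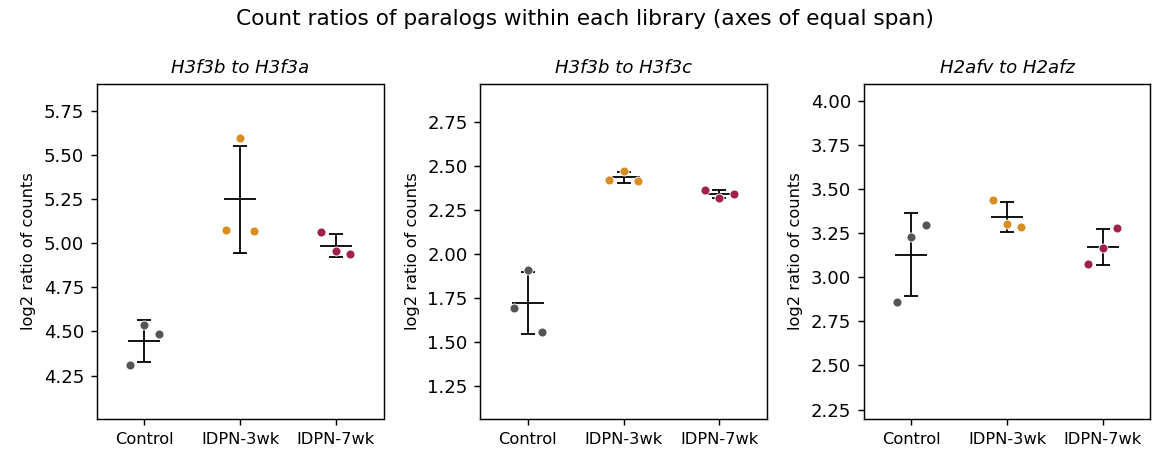
Log2 ratio of the counts of paralogous genes within each library (y axes of equal span) by group (x axis). Points are libraries, the bar is the mean of 3 and the whiskers are the SD. Both ratios with H3f3b are higher in every exposed rat than in every control, whereas H2afv to H2afz ranges from 2.86 to 3.297 in control and from 3.07 to 3.44 in the exposed rats.

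H2afx (ENSRNOG00000010386) encodes H2A.X, the variant that is phosphorylated at DNA breaks. Its mRNA is known in a stem-loop and a polyadenylated form, and oligo-dT priming captures the latter. It had 12.6, 11.0 and 12.9 CPM in control, 14.6, 13.1 and 17.0 CPM in IDPN-3wk and 20.9, 17.1 and 16.6 CPM in IDPN-7wk. All 6 exposed rats were above all 3 controls, the only other member for which this held at both times. Of all genes tested, 8.78% were higher without overlap at 3 weeks and 17.2% at 7 weeks, each time taken alone. At 3 weeks the gap was narrow, with the lowest exposed rat at 13.06 CPM and the highest control at 12.94 CPM. The log2 fold change was 0.29 at 3 weeks (95% interval -0.14 to 0.72, adjusted p = 0.507 by edgeR), and 0.18 without IDPN-3wk replicate 3. At 7 weeks it was 0.58 (SE 0.191, 95% interval 0.15 to 1.00), a fold change of 1.49. Its unadjusted p was 0.0130 in the model across all genes and its adjusted p was 0.122 by edgeR, so it did not pass the test. DESeq2 gave an adjusted p of 0.0441, with a fold change that stayed under the threshold of 1.5. The upper bound at 7 weeks lay above the estimate for H3f3b, so a change as large as that of H3f3b is within its error.

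H2afy (ENSRNOG00000011523) encodes macroH2A1. It had 21.2, 23.0 and 17.4 CPM in control, 23.8, 33.03 and 24.4 CPM in IDPN-3wk and 22.4, 21.0 and 20.0 CPM in IDPN-7wk. The IDPN-3wk rats were above all controls and above all IDPN-7wk rats, with replicate 2 the highest, and the IDPN-7wk rats overlapped the controls. The log2 fold change was 0.40 at 3 weeks (95% interval -0.01 to 0.81, adjusted p = 0.331 by edgeR), 0.04 at 7 weeks (95% interval -0.37 to 0.45, adjusted p = 0.944 by edgeR) and -0.36 from 3 to 7 weeks (95% interval -0.77 to 0.05, adjusted p = 0.438 by edgeR). None of these passed the test. Without IDPN-3wk replicate 2 the value at 3 weeks was 0.23 and that between the exposure times was -0.19. The upper bound at 3 weeks included the estimate for H3f3b, and that at 7 weeks did not.

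H2afz (ENSRNOG00000010306) and H2afv (ENSRNOG00000052275) encode the H2A.Z proteins, which differ at only a few residues. H2afz had 13.35, 11.2 and 10.9 CPM in control, 11.0, 11.0 and 11.4 CPM in IDPN-3wk and 12.0, 11.5 and 11.2 CPM in IDPN-7wk, and its 3 groups overlapped. H2afv had 96.8, 105 and 107 CPM in control, 119, 109 and 112 CPM in IDPN-3wk and 101, 103 and 109 CPM in IDPN-7wk. At 3 weeks its exposed rats were just above the controls, and at 7 weeks they overlapped. The log2 fold change of H2afz was -0.08 at 3 weeks (95% interval -0.50 to 0.34) and -0.03 at 7 weeks (95% interval -0.45 to 0.39), with adjusted p of 0.891 and 0.967 by edgeR. That of H2afv was 0.14 (95% interval -0.06 to 0.34) and 0.02 (95% interval -0.18 to 0.22), with adjusted p of 0.491 and 0.937 by edgeR. All 4 upper bounds were below the estimates for H3f3b. RefSeq lists 9 rat entries with symbols that begin H2az, 4 of them pseudogenes, so this division of reads is uncertain as well.

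**Figure D3:**
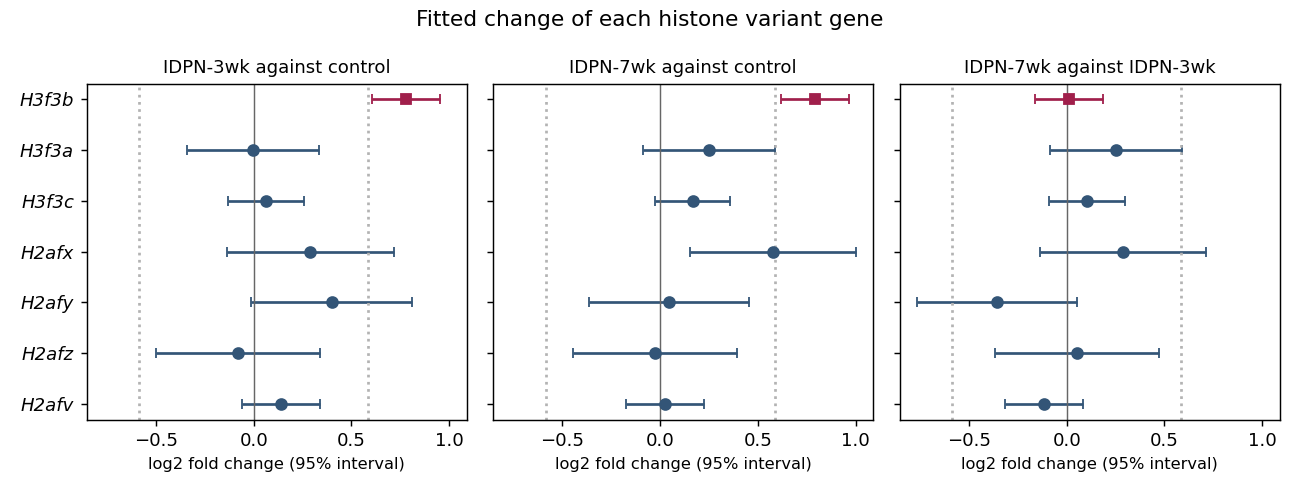
Log2 fold change of each histone variant gene (x axis) in 3 panels, from left to right the change at 3 weeks, the change at 7 weeks and the difference between the exposure times. Bars are 95% intervals of the edgeR fit of 9 libraries, dotted lines mark a fold change of 1.5 in either direction, and the square is H3f3b, by which the set was chosen. H3f3b lies at 0.78 and 0.79 against control and at 0.01 between exposure times, and the intervals of the other genes include 0 in all comparisons except that of H2afx at 7 weeks.

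Of the 5 other members, 0 were called at 3 weeks (in edgeR's test, adjusted p under 0.05 with more than a 1.5-fold change), where 1.65% of all genes tested were called. At 7 weeks 0 of 5 were called, against 5.13% of all genes, and between 7 and 3 weeks 0 of 5, against 0.483%. DESeq2 also called 0 of the 5 in each comparison. At an unadjusted p under 0.05, 1 of the 5 passed at 7 weeks (H2afx), where 19.3% of all genes did, a share like that of the members. At this cut 0 passed at 3 weeks, beside 15.8% of all genes, and 0 between the exposure times, beside 13.8%. By fold alone, with no test, 3 of 5 were higher than control at 3 weeks and 4 of 5 at 7 weeks, against 49.9% and 51.1% of all genes. At 3 weeks the groups did not overlap for 3 of 5 (H2afx, H2afy and H2afv, all higher), beside 8.78% of all genes that were higher without overlap and 19.6% in either direction. At 7 weeks this held for 2 of 5 (H3f3a and H2afx, both higher), beside 17.2% and 34.3%. Between 7 and 3 weeks H3f3a was higher and H2afy lower without overlap, beside 21% of all genes in either direction.

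The differences could be compared within libraries of similar complexity. At an equal depth of 31100118 counts, 3 libraries (control replicate 3 and IDPN-3wk replicates 1 and 2) detected 15387 to 15498 genes, and the other 6 detected 16834 to 17312. The difference of H3f3b from control at 3 weeks was 0.81 among the former and 0.77 among the latter, in log2 CPM, and it was 0.77 at 7 weeks, where only the latter could be compared. For H2afx the 3-week difference was 0.09 among the libraries with fewer genes and 0.53 among the others, and its 7-week difference was 0.62. For H2afy the 3-week difference was 0.68 with fewer genes and 0.15 with more, the larger difference thus lying among the libraries with fewer genes. For H3f3a the 3-week differences were -0.03 and 0.13, for H2afz 0.02 and -0.09, and for H2afv 0.09 and 0.15. The 3-week values rest on 1 or 2 libraries a group and the 7-week values on 3 exposed rats against 2 controls, and none has a test.

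Over the 9 libraries, Pearson's r of log2 CPM with H3f3b was 0.755 for H2afx, 0.473 for H2afy, 0.456 for H2afv, 0.289 for H3f3a and -0.253 for H2afz. The libraries share their groups and their scaling, so r largely records the step between control and exposed rats. The 5 genes most like H3f3b among 15516 others were Ass1 (r = 0.981), an enzyme of arginine synthesis, Rprd1b (0.980), a regulator of RNA polymerase II, Gstt2 (0.976), a glutathione transferase, Lbp (0.975), which binds lipopolysaccharide, and Miip (0.973). Ass1 was at 24.6 ± 1.13 CPM in control, 48.1 ± 2.74 in IDPN-3wk and 46.2 ± 5.27 in IDPN-7wk (SD, n = 3). Lbp was at 144 ± 3.73, 298 ± 29.6 and 296 ± 7.80 CPM. As with H3f3b, the exposed groups of both genes were close to each other and above the control. Miip had 0 counts in all controls and 24 to 84 counts in exposed rats. With Spearman's rho in place of r, 0 of these 5 genes were among the 5 most similar.

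**Figure D4:**
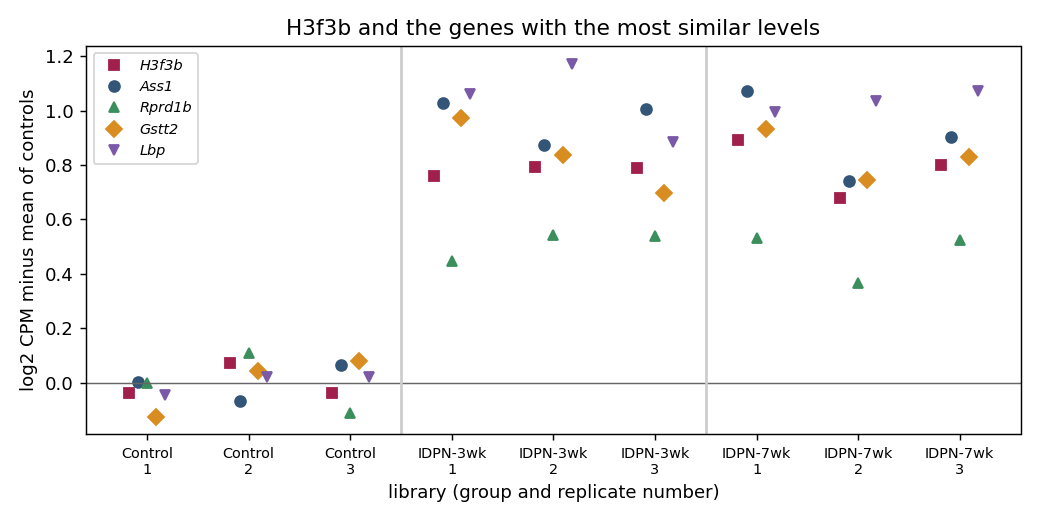
Log2 CPM minus the mean of the 3 controls (y axis) for H3f3b, Ass1, Rprd1b, Gstt2 and Lbp in each library (x axis, group and replicate number). Miip is left out because it had 0 counts in all controls. All 5 genes step up between control and IDPN-3wk, by 0.78 for H3f3b and by 0.51 for Rprd1b, and the IDPN-7wk rats lie in the range of the IDPN-3wk rats or close to it.

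Further variant genes were examined in the same way. Of 14 listed besides the 7, 9 were in the table and 6 were tested (H3f3c, H2afy2, H2afj, Cenpa, H1fx and Hist3h2ba, the last of which also stands among the replication-coupled genes in the next paragraph). None was called at either time, and 1 of 6 (Hist3h2ba) had an unadjusted p under 0.05 at each time, beside 15.8% and 19.3% of all genes. H2afy2, which encodes macroH2A2, had a mean of 17.4 ± 0.788 CPM in control, 19.0 ± 4.31 in IDPN-3wk and 17.7 ± 1.14 in IDPN-7wk, and it differed from control by 0.13 and 0.02 on the log2 scale (adjusted p = 0.806 and 0.974 by edgeR). H2afj, an H2A variant, was at 0.336 ± 0.304 CPM in control, 1.11 ± 0.592 in IDPN-3wk and 0.474 ± 0.305 in IDPN-7wk, with 3 to 64 counts in a library. The linker histone gene H1fx had 4 to 27 counts in a library, and Cenpa, the centromeric H3, had 0 in 3 of the 9. H1foo, H1fnt and H2afb3, known from germ cells, were at 0 counts in all 9 libraries. The median log2 fold change of the 6 was 0.95 at 3 weeks and 0.44 at 7 weeks, with the median of all genes tested at -0.0005 and 0.0097, and the genes with the largest values were those with few counts.

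Replication-coupled histone genes were mostly below the filter. The libraries were primed on the poly(A) tail, which most of these mRNAs lack. Of 36 entries 10 were tested and 3 were at 0 in all libraries. None was called, and 1 at 3 weeks and 2 at 7 weeks had an unadjusted p under 0.05, beside 15.8% and 19.3% of all genes. The median log2 fold change of the 10 was 0.07 at 3 weeks and 0.28 at 7 weeks. Hist3h2ba, an H2B gene, was at 65.9 ± 14.1 CPM in control, 97.9 ± 8.91 in IDPN-3wk and 86.9 ± 4.49 in IDPN-7wk (log2 fold change 0.57 and 0.40, adjusted p = 0.0978 and 0.179 by edgeR). All exposed rats were above all controls for this gene, beside 8.78% of all genes higher without overlap at 3 weeks and 17.2% at 7 weeks. Hist1h1c, a linker histone gene with polyadenylated transcripts, was at 23.5 ± 3.82, 27.9 ± 5.74 and 31.8 ± 2.33 CPM (0.25 and 0.44, adjusted p = 0.589 and 0.252 by edgeR). The summed CPM of the 10 ran from 83.1 to 121 in control, 129 to 155 at 3 weeks and 127 to 143 at 7 weeks. Most of this sum was Hist3h2ba, and without it, a choice made after the data were seen, the ranges were 31.2 to 40.7, 31.7 to 47.4 and 41.5 to 54.2 CPM, so that control and IDPN-3wk overlapped.

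The chaperones that deposit H3.3 include the HIRA complex, which acts at active genes, and DAXX with ATRX, which act at repeats and telomeres. Of 14 genes of this group tested, 0 were called, with 7 higher and 7 lower at both times and medians of 0.0035 and 0.0083. At an unadjusted p under 0.05 there were 4 of 14 at 3 weeks and 3 of 14 at 7 weeks, beside 15.8% and 19.3% of all genes, and DESeq2 called 1, Chd2, at 7 weeks (-0.64 on the log2 scale). Rbbp7, a histone-binding subunit of several chromatin complexes, was at 243 ± 8.28 CPM in control, 310 ± 24.1 in IDPN-3wk and 317 ± 23.7 in IDPN-7wk. Its log2 fold change was 0.35 (adjusted p = 0.0879 by edgeR) and 0.38 (adjusted p = 0.0342 by edgeR), the latter past the p threshold with a fold under 1.5. Daxx differed from control by 0.52 on the log2 scale at 7 weeks (23.7 ± 3.13 to 33.9 ± 1.15 CPM, adjusted p = 0.0730 by edgeR), and Atrx by -0.28 at 3 weeks (149 ± 9.44 to 122 ± 12.4 CPM, adjusted p = 0.194 by edgeR).

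The group around H2A.Z holds the SRCAP and p400 exchange complexes and the chaperone ANP32E, which removes it. Of its 14 genes 0 were called and 0 had an unadjusted p under 0.05 at either time, beside 15.8% and 19.3% of all genes, with medians of 0.12 at 3 weeks and 0.04 at 7 weeks. Its smallest p-values were those of Actl6a (0.30, adjusted p = 0.394 by edgeR) and Kat5 (0.25, adjusted p = 0.457) at 3 weeks and of Znhit1 (-0.27, adjusted p = 0.480) and Dmap1 (-0.28, adjusted p = 0.513) at 7 weeks, as log2 fold changes. The list of H2A-H2B and H1 chaperones also held other chromatin genes that are not such chaperones, and Set by more than 1 entry. Of its 13 entries 0 were called (3 at 3 weeks and 0 at 7 weeks at an unadjusted p under 0.05, beside 15.8% and 19.3% of all genes), with medians of 0.19 and 0.21. At 3 weeks its smallest p-values were those of the nucleolar genes Ncl (0.29, adjusted p = 0.187 by edgeR) and Npm1 (0.26, adjusted p = 0.270 by edgeR). At 7 weeks they were those of Spty2d1, which is among the other genes (0.39, adjusted p = 0.309 by edgeR), and Npm1 (0.22, adjusted p = 0.310 by edgeR).

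The kinases, readers and ubiquitin ligases that act with H2A.X were also 0 of 12 called (3 at 3 weeks and 0 at 7 weeks at an unadjusted p under 0.05, beside 15.8% and 19.3% of all genes), and their medians were -0.17 and -0.13. Prkdc, a kinase that phosphorylates H2A.X, differed by -0.61 on the log2 scale at 3 weeks (55.2 ± 8.72 to 36.1 ± 6.99 CPM, adjusted p = 0.111 by edgeR and a call with DESeq2), and the ligase Rnf168 by -0.47 (24.3 ± 0.995 to 17.6 ± 0.786 CPM, adjusted p = 0.154 by edgeR). At 7 weeks the smallest p-values were those of Baz1b, a tyrosine kinase of H2A.X (0.30, adjusted p = 0.320 by edgeR), and Rnf8 (-0.22, adjusted p = 0.353). The sign of these medians was thus opposite to that of H2afx itself at both times, with no gene of the group past the test.

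Genes of DNA replication and mitosis were examined because H2afx is also transcribed in S phase. Of 20 tested 0 were called (0 at 3 weeks and 2 at 7 weeks at an unadjusted p under 0.05, beside 15.8% and 19.3% of all genes). The medians were 0.27 at 3 weeks and 0.78 at 7 weeks, with the median of all genes tested at -0.0005 and 0.0097. By fold alone 18 of 20 were higher at 7 weeks, beside 51.1% of all genes. The largest values were those of genes with few counts. The highest control means were those of Pcna (43.0 CPM), Mcm7 (41.2), Slbp (38.0), Mcm2 (26.3) and Mcm4 (22.6). At 7 weeks these differed by 0.05, -0.28, 0.52, 0.43 and 0.27. The summed CPM of the 20 ran from 203 to 219 in control, 217 to 249 at 3 weeks and 257.5 to 267 at 7 weeks, with no test. Slbp, which binds the histone stem-loop, differed by 0.52 on the log2 scale at 7 weeks (38.0 ± 5.06 to 54.3 ± 4.30 CPM, adjusted p = 0.0652 by edgeR), and Mcm6, of the replicative helicase, by 0.82 (6.80 ± 1.35 to 12.0 ± 2.35 CPM, adjusted p = 0.236). At 3 weeks Mki67 was at 1.95 ± 0.979 CPM against 3.64 ± 0.475 in control (-0.90, adjusted p = 0.366 by edgeR). At 7 weeks Mki67 was higher than control, at 6.06 ± 1.8 CPM (0.74, adjusted p = 0.422 by edgeR). Top2a at 3 weeks was at 1.64 ± 2.73 against 0.104 ± 0.181 CPM in control (3.96, adjusted p = 0.383), with an SD above the mean in both groups.

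**Figure D5:**
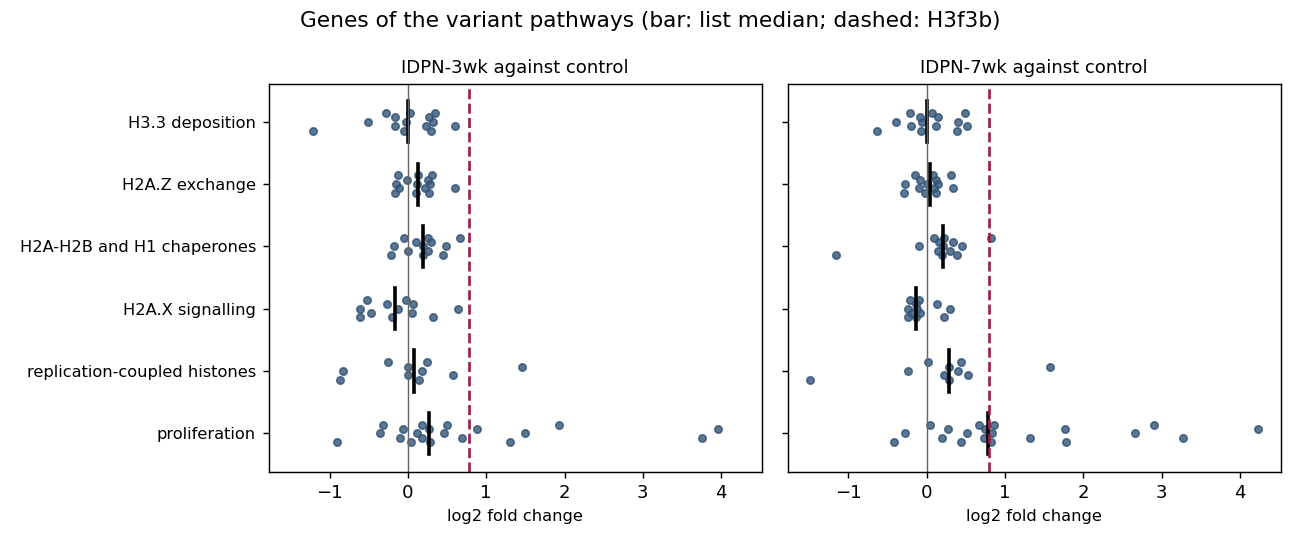
Log2 fold change (x axis) of each tested gene in 6 groups related to the histone variants (y axis) for IDPN-3wk and IDPN-7wk against control. Points are genes, short bars are medians and the dashed line is H3f3b at 0.78 and 0.79. The medians of the chaperone, exchange and H2A.X groups lie between -0.17 and 0.21, no gene shown was called, and the points beyond 2 in the proliferation group are genes at or under 0.122 CPM in control.

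The tissue carried the markers of its HCs and supporting cells in all libraries. From these bulk counts alone, fewer cells of a type and less RNA per cell cannot be told apart. The paper, which counted HCs in other rats, reports limited HC loss at shorter exposures and a likely significant loss in the 7-week samples. Summed HC markers (11 genes, none at 0) were at 1874 to 2000 CPM in control, 1044 to 1342 at 3 weeks and 996 to 1175 at 7 weeks, with 3 and 6 of 11 called lower. Supporting cell markers (10 genes, none at 0) were at 15210 to 15850, 9649 to 12030 and 6268 to 9023 CPM, with 1 and 4 called lower. Most of the control sum was Otog, with means of 8473, 4674 and 3533 CPM. By fold alone all 10 were lower at both times. Their log2 fold changes ran from -0.94 to -0.02 at 3 weeks and from -1.26 to -0.25 at 7 weeks. Macrophage markers (9 genes, of which Cx3cr1 was at 0 in some libraries) were at 71.0 to 113, 65.9 to 142 and 204 to 256 CPM, with 0 and 2 called higher. Schwann cell and neuron markers (10 genes, Prph at 0 in some libraries) were at 9142 to 11460, 7163 to 9698 and 3113 to 6545 CPM, with 1 and 3 called lower. Stromal and endothelial markers (7 genes) were at 436 to 481, 450 to 654 and 408 to 586 CPM, with 0 called at 3 weeks and 1 higher and 1 lower at 7 weeks. Of all genes tested, 1.65% were called at 3 weeks and 5.13% at 7 weeks, in either direction. By fold alone, 1 of 11 HC markers (Gfi1, log2 fold change 0.55) was higher at 3 weeks. Of the Schwann cell and neuron markers, 3 of 10 were higher at 3 weeks and 1 of 10 at 7 weeks. Among macrophage markers 3 of 9 were lower at 3 weeks. The part of these cell types in the values of H3f3b and H2afx was not tested. The share of mitochondrially encoded counts was 5.64% to 7.30% in IDPN-7wk and 9.27% to 11.1% in the other libraries.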

How the data were processed

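RNA was sequenced from the pooled utricles and cristae of single rats after oligo-dT primed SMARTseq2 amplification with no molecular identifiers. The authors mapped reads with STAR (2.5.3a) to the rat genome and estimated gene counts with RSEM (1.3.0), versions as in the submitters' processing notes. The table deposited by them holds expected counts, estimated per gene, as whole numbers without normalization. Whether counting used strand is not given in the sources used here. Totals ran from 31100118 to 46018385 counts, so that 3 counts equal 0.0652 to 0.0965 CPM, a floor that covers counting error only. Replicate libraries of a group differed by more than sampling noise.

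Genes were kept by filterByExpr (15517 genes), scaled by TMM and tested with the robust quasi-likelihood test of edgeR 4.0.16 in R 4.3.3, in a single fit of 9 libraries with a mean per group. In each comparison the Benjamini-Hochberg adjustment covered all genes. Intervals are at 95%, and the fit had 6 residual degrees of freedom with 4.07 prior ones at the median. Genes were called at more than 1.5-fold with an adjusted p under 0.05. Exact permutation of 3 against 3 libraries cannot go below p = 0.1 and was not used. Log2 CPM used a prior count of 2.

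The members and gene lists were chosen with earlier results of these data known. Of each list, the genes called or else the 2 with the smallest p in each comparison with control were named, with the 5 genes most correlated with H3f3b. For the cell type markers, which were listed as a check of the tissue, counts and sums are given. Alternatives were DESeq2 1.42.0, RLE size factors, other filters and fold thresholds, the groups compared alone, each library left out in turn, a covariate for the 3 libraries in which fewer genes were detected, scaling without mitochondrial genes, and summed paralog counts. H1f0, Brd2, Ocm, Itgam and Pecam1 were not analysed here. Promoter windows of all 7 members were matched in RefSeq GRCr8, CCAAT and TATAAA were searched on both strands, and no genome position of the count table is given, since its build differs.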

Additional observations from a re-analysis of the deposited data

How the results depend on the processing

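The alternatives gave 249 fold changes for the 5 members other than H3f3b, sums with a paralog among them, over all comparisons and settings, and 0 were called. These values come from far fewer fits, which mostly share the same libraries, so they are not independent. The log2 fold change of H3f3b ran from 0.62 to 0.82 at 3 weeks and from 0.66 to 0.85 at 7 weeks. The low ends, 0.62 and 0.66, are those of H3f3a, H3f3b and H3f3c summed, an alternative added after the data were seen. H3f3b has no test here, and its fold change in the main fit, 1.72 at 3 weeks and 1.73 at 7 weeks, is a description. Leaving out 1 library gave log2 fold changes of H3f3b from 0.76 to 0.82 at 3 weeks and from 0.74 to 0.85 at 7 weeks.

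Changes of sign were found only for differences near 0, and the cause was not tested. H3f3a at 3 weeks was 0.0022 with DESeq2, 0.002 with RLE size factors, 0.0551 with the covariate for libraries with fewer detected genes, 0.0547 summed with H3f3c (added after the data were seen), and -0.10 to 0.14 with a library left out. H2afz summed with H2afv was 0.12 at 3 weeks, 0.0185 at 7 weeks and -0.10 between them, and H2afz between 7 and 3 weeks was -0.0243 with the covariate. Both sums held mostly counts of the other paralog and are not values of H3f3a or H2afz alone. In control the mean log2 ratio of H2afv to H2afz was 3.13. H3f3c had a mean of 22.5% of the counts of the 3 H3.3 entries in control, and H3f3a 3.41%. With a library left out, H2afz ran from -0.14 to 0.0195 at 3 weeks and from -0.0834 to 0.0714 at 7 weeks, H2afv from -0.0173 to 0.0522 at 7 weeks and H2afy from -0.0609 to 0.13 at 7 weeks.

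The 0 calls among the chromatin lists became 1 in some settings. At 3 weeks the gene was Prkdc with DESeq2 (-0.61, adjusted p = 0.0226), Hist3h2ba with the covariate (0.70, adjusted p = 0.0319 by edgeR) and Atr without IDPN-3wk replicate 3, so that leaving out a library gave 0 to 1. At 7 weeks it was Chd2 with DESeq2 and with only the 2 groups compared, Rbbp7 with no fold threshold, and Chd2 without IDPN-3wk replicate 1 (0 to 1 with a library left out). Between exposure times it was Mki67 with DESeq2 and Ptms without IDPN-3wk replicate 3 (0 to 1). With Spearman's rho 0 of the 5 genes most similar to H3f3b were shared. No paired analysis was possible because the labels give no replicate numbers, and those used here follow sample order. Sample titles carry a prefix of unstated meaning, which all 3 controls share with each other and with no exposed rat, so that any batch it might mark and the exposure cannot be told apart. Genes with few counts, such as Cenpa, are limited by depth.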
